A study of Mus musculus with 21 samples.

Results

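The genes described here encode 10 endolysosomal proteases, protease inhibitors and a thiol reductase, namely Ctsa, Ctsc, Ctse, Ctsh, Ctsz, Ctsk, Cst3, Cst7, Cstb and Ifi30 (GILT). They were chosen by name from the 37734 genes of the RNAseq tables by a rule that uses no measured value. RNA was measured in conventional dendritic cells (cDCs) that had been enriched on CD11c beads and FACS-sorted from C57BL/6 mice aged 6-8 weeks, each library being made from a pool of mice. The cells were cDC1 (CD24+ CD11b-) and cDC2 (CD24- CD11b+), sorted as immature (CCR7- Esam-) from spleen and thymus and as mature (CCR7+ Esam+) from thymus. The mice were untreated, no gene was targeted, and mature splenic cells were not analysed here. The 21 libraries made 20 samples. Immature cDC1 gave 4 samples from spleen and 4 from thymus, and each of the other groups (mature cDC1 of the thymus and the 3 groups of cDC2) gave 3.

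Proteins taken up by dendritic cells are cut into peptides in endosomes and lysosomes before they are loaded on MHC class II molecules, and thymic dendritic cells show such peptides to developing T cells. Exopeptidases trim peptide ends: CTSC removes dipeptides from the amino end and activates granule serine proteases, CTSH is an aminopeptidase, and CTSZ and CTSA are carboxypeptidases. CTSK and CTSE are endopeptidases, of the cysteine and the aspartic class. Cystatin C (Cst3) is secreted, cystatin F (Cst7) is targeted to lysosomes where it inhibits CTSC among others, and stefin B (Cstb) is mostly cytosolic. GILT reduces disulfide bonds and so unfolds proteins for the proteases.

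Promoters held in RefSeq for the GRCm38.p6 build were found for 7 of the 10 genes, and the 250 bases before the start site were searched on both strands for CACGTG (an E-box of the kind bound by TFEB), GAGGAAGT (a PU.1-type sequence), TTCNNNGAA (a STAT-type sequence) and GAAANNGAA (part of an interferon response element). These motifs were chosen after the values had been seen. Of the 3 genes called higher in cDC2 in every comparison of the subsets, Ctsc and Cst7 are shown as a protease and its inhibitor, while Ctsa, whose window held none of the motifs, is not, and Ifi30 is shown because it is the gene named for interferon. Capitals mark the matches, and a sequence without capitals held none of the 4 motifs.
Ctsc, chr7:88277835-88278084, + strand: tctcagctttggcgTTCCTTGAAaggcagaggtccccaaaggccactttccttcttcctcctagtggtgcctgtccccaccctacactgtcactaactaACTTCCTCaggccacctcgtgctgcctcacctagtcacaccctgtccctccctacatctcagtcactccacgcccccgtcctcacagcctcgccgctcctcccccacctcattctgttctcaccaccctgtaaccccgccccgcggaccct
Cst7, chr2:150570165-150570414, + strand: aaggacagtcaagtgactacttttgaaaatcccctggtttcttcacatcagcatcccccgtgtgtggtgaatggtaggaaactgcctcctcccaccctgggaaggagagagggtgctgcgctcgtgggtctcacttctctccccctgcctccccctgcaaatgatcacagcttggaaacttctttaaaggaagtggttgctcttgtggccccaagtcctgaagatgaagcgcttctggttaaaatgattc
Ifi30, chr8:70766664-70766913, - strand: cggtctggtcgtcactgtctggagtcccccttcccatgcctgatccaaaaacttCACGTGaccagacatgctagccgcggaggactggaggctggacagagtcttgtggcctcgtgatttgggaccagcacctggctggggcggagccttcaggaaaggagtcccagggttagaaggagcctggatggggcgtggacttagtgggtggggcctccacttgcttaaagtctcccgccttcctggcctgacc
Ctsc held a PU.1-type match at -151 and a STAT-type match at -236 from the start site, and Ifi30 an E-box at -196. Of 32851 promoters of the same length, 2.44% held the PU.1-type sequence, 7.02% the STAT-type sequence, 6.02% the E-box and 7.13% the interferon-type sequence. A match of letters is a description and no measure of binding.

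In GENCODE M21 on mm10, Ctsc lies on chromosome 7 (88278085 to 88310888, + strand), Ctsh on chromosome 9 (90054152 to 90076089, + strand), Ctsk on chromosome 3 (95499256 to 95509362, + strand) between Arnt and Ctss, Ctse on chromosome 1 (131638306 to 131675505, + strand) and Cstb on chromosome 10 (78425669 to 78427622, + strand). Chromosome 2 carries Ctsz (174427493 to 174439039, - strand), Ctsa (164832873 to 164841032, + strand), Cst3 (148871722 to 148875692, - strand) and Cst7 (150570415 to 150578944, + strand). Ifi30 lies on chromosome 8 (70762774 to 70766663, - strand) and is annotated there as a processed transcript. Exons of 3 genes overlap exons on the other strand, namely Ctsz with Nelfcd, Ctsa with Neurl2 and Pltp, and Ifi30 with 6330537M06Rik. The library kit was stranded, but the strand setting of the counting is not given in the sources used here, so reads of these overlaps may belong to either gene.

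Libraries 4 and 5 of splenic cDC1 carried the same number, index and lane and differed far less than other pairs (chi-square per degree of freedom 2.53, other pairs of a group 21.4 or more), so their mean was used as 1 sample. Replicate 1 of splenic cDC1 has the same library number as that pair, and replicates 3 and 4 of immature thymic cDC1 share a number and a lane, but these differed as much as other pairs and were counted apart. Since each library came from pooled mice and nothing ties the samples to separate groups of animals, p-values measure the spread between these samples. The libraries held 14266867 to 40119669 recovered reads (median 24768633). Markers of the subsets and of maturation followed the labels in part. Xcr1 lay at 8385 to 20744 normalized reads in immature cDC1 and at 364 or less in cDC2. It was at 253 to 557 in mature cDC1, so this cDC1 marker was low there and reached the cDC2 values. Sirpa lay at 5415 to 28215 in cDC2 and at 1548 or less in cDC1. Ccr7 lay at 91722 to 129531 in mature and at 5433 or less in immature samples. The summed level of 5 cDC1 markers was 14299 to 22307 in mature cDC2, against 2818 to 4785 in immature thymic cDC2 and 40302 to 43791 in mature cDC1. Genes of other cell types moved with some groups. The summed level of 6 T-lineage genes was 506 to 1204 in the mature groups, 63.0 to 165 in the immature thymic groups and 3.69 to 65.0 in the splenic groups, and its part in the maturation and tissue results was not tested. In thymus, replicate 3 was the highest of its group for 7 of the 10 genes in immature cDC1, 9 in mature cDC1 and 8 in immature cDC2, whereas replicate 3 of mature cDC2 was the lowest for 7. In spleen, replicate 3 was the highest for 5 genes in cDC1 and 4 in cDC2. Both mature groups were sequenced in lane 8 only, while each immature group was split over lanes 5 and 8, so differences within a lane, some of them between single samples, are given beside the results. In bulk samples, fewer cells of a type and less RNA per cell cannot be told apart.

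Levels were compared between genes as the normalized read count per kilobase of exon, with all annotated exons of a gene joined. The joined length ran from 603 bases for Cstb to 5808 for Ctsc, and it was 6489 for Ctsl. It can exceed the length of the transcript present in the cells, so levels and their order between genes are approximate. Cst3 was the most abundant of the 10 genes in 5 of the 6 groups, with means from 29930 per kb in immature thymic cDC2 to 137162 per kb in mature thymic cDC1, where it took rank 3 of 37607 genes. In splenic cDC2 it lay at 9611 ± 2642 per kb (SD, n = 3) and overlapped with Ifi30 (10144 ± 1898) and Ctsz (7126 ± 2206). Ifi30 and Ctsz were the next genes in every other group and overlapped with each other in all 6 groups. Ctsh (1068 to 6733 per kb), Cstb (826 to 5193), Ctsc (845 to 2246) and Ctsa (73.6 to 2182) followed, and Ctse (4.62 to 210), Cst7 (8.25 to 441) and Ctsk (3.39 to 15.6) were lowest in most groups, although Ctse lay above Ctsa in immature thymic cDC1 with overlapping ranges. For scale, the group means of Ctss, the main protease of class II invariant chain processing, lay between 8536 and 29693 per kb, and those of Ctsl between 27.3 and 96.1.

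**Figure D1:**
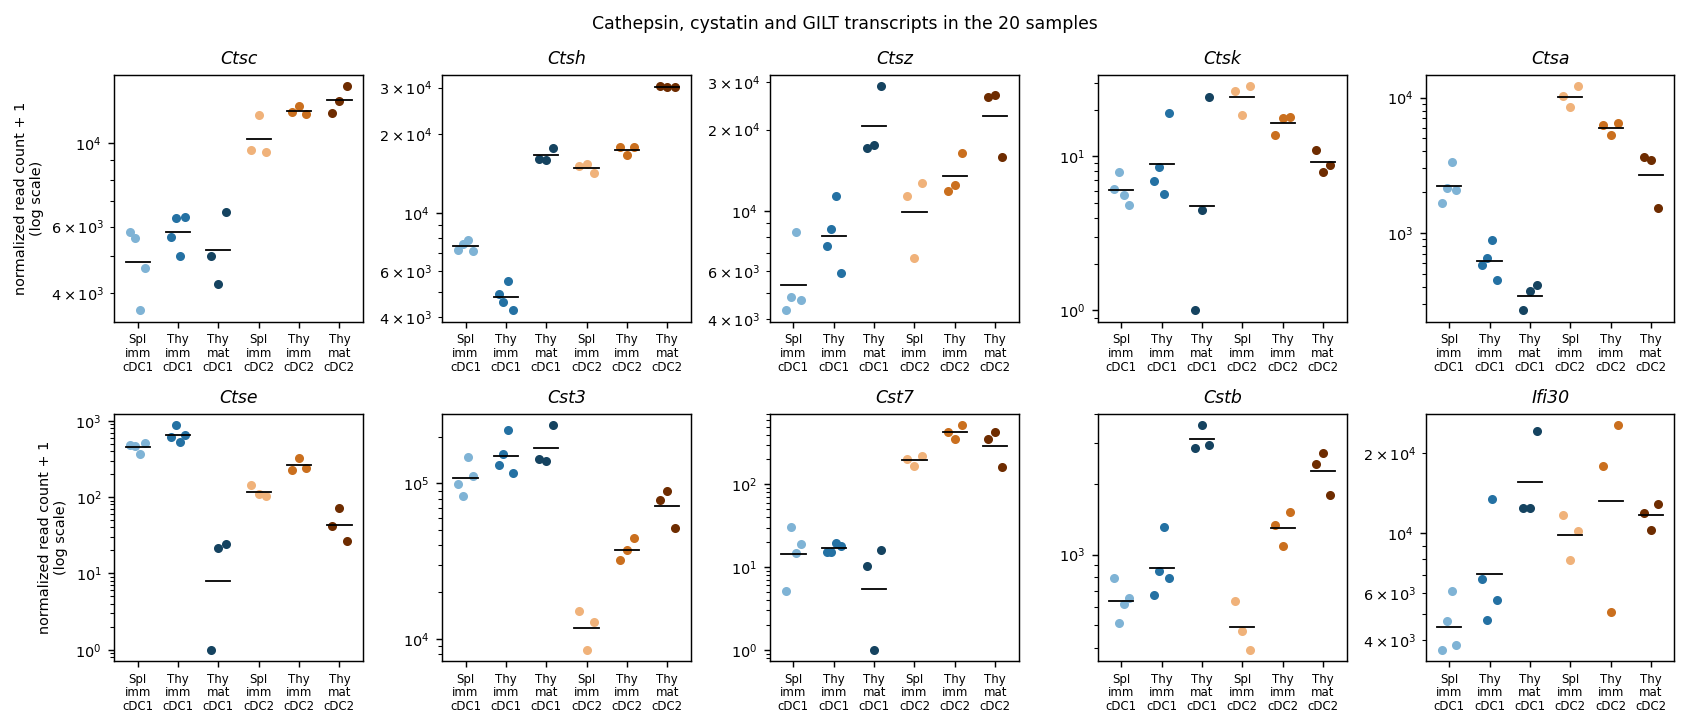
Normalized read counts plus 1 (log scale, a separate axis for each gene) of the 10 genes in the 20 samples, 1 point per sample and a bar at the geometric mean of each group. The cDC2 points of Ctsa and Ctsc lie above the cDC1 points from the same tissue and state, those of Cst3 lie below, and the Ctse points of mature cells are the lowest of their subset.

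The comparisons asked how the genes differ between mature and immature cells, between thymus and spleen, and between the subsets. Fold changes are given as log2 of the value plus 1, with the standard error after ±. For genes near 0 they depend on the added 1 and on single samples at 0. A gene was counted as changed at a Benjamini-Hochberg adjusted p below 0.1 in limma, over all 14970 genes tested, together with more than 2-fold. All 10 genes passed the filter on low values, which kept a gene that reached 10 normalized reads in 3 or more of the 20 samples. On maturation in thymic cDC1, 6 of the 10 changed (4 rose and 2 fell), where 45.7% of all genes tested changed. In thymic cDC2, 2 fell and 0 rose, against 35.6% of all genes. Another 4 were higher at an adjusted p below 0.1 but less than 2-fold, 4 were higher at an unadjusted p under 0.05, and edgeR and DESeq2 also called 0 rises. Between thymus and spleen, 1 gene fell in immature cDC1 (8.77% of all genes changed) and 2 rose in immature cDC2 (14.2%). Between the subsets, 7 genes differed in spleen (16.6% of all genes), 5 in immature thymic cells (16.4%) and 5 in mature thymic cells (18.9%). The median log2 difference of the 10 genes between cDC2 and cDC1 was 1.04 in spleen, 0.90 in immature and 0.91 in mature thymic cells, beside 0.02, 0.01 and 0.14 over all genes. The maturation effects of the subsets differed for 2 of the 10 genes, Ctse and Cstb, where 13.6% of all genes differed, and the tissue effects for 0, where 4.98% did. For the tissue effects, 4 of the 10 had an unadjusted p under 0.05 in limma, edgeR called 0 and DESeq2 called 2.

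**Figure D2:**
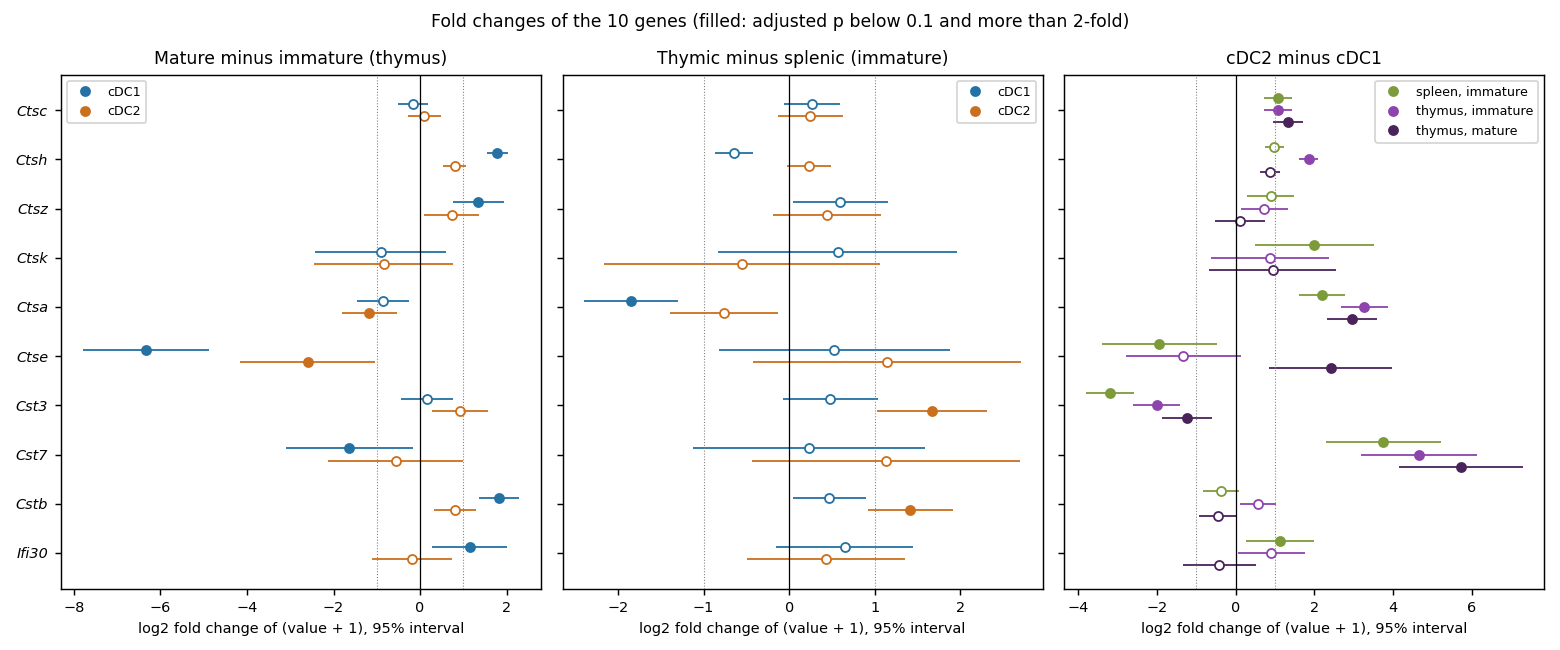
Log2 fold changes of the 10 genes (vertical axis) with 95% intervals for maturation (left), tissue (middle) and subset (right), on horizontal axes of log2(value + 1). Filled points passed the adjusted p of 0.1 and 2-fold, dotted lines mark 2-fold, and Ctse in cDC1 (-6.34 on maturation) and Cst7 (3.76 to 5.73 between subsets) lie farthest from 0.

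Ctsc, the dipeptidyl peptidase, was higher in cDC2 than in cDC1 in spleen, immature thymus and mature thymus. In cDC1 its normalized read counts were 5816, 5589, 3588 and 4643 in the splenic samples, 5636, 6309, 5006 and 6362 in the immature thymic samples and 5018, 4222 and 6575 in the mature ones. In cDC2 they were 9584, 11880 and 9456, then 12060, 12513 and 11955, then 12003, 12938 and 14198. The lowest cDC2 sample was above the highest cDC1 sample. The log2 difference was 1.09 ± 0.17 in spleen (adjusted p = 5.4e-05), 1.07 ± 0.17 in immature thymus (6.77e-05) and 1.33 ± 0.18 in mature thymus (2.19e-05). The first of these fell below 2-fold, at 0.98, without replicate 2 of splenic cDC2 and, at 0.94, without replicate 3 of splenic cDC1, and the second did so, at 0.998, without replicate 3 of immature thymic cDC1. Within lanes the spleen difference was 0.90 in lane 5 and 1.21 in lane 8. The maturation effect was -0.16 (95% interval -0.52 to 0.19) in cDC1 and 0.10 (-0.28 to 0.48) in cDC2, and the tissue effects were 0.27 and 0.25, none of which passed the test.

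Ctsh, the aminopeptidase, rose on maturation in cDC1. Immature thymic cDC1 had 4909, 4564, 5510 and 4236 normalized reads and mature thymic cDC1 16084, 15899 and 17725. The groups lay far apart, and the log2 fold change was 1.79 ± 0.12 (adjusted p = 5.11e-11; 1.80 within lane 8). In cDC2 the counts were 17813, 16553 and 17863 in immature and 30493, 30203 and 30177 in mature thymic samples, a log2 difference of 0.80 ± 0.12 (adjusted p = 2.06e-05) that is under 2-fold. The maturation effect in cDC2 was smaller than that in cDC1 by 0.99 ± 0.17 on the log2 scale (adjusted p = 5.39e-04). Splenic cDC1 had 7215, 7589, 7891 and 7163 and splenic cDC2 15011, 15309 and 14118. The thymic cDC1 values were thus all below the splenic ones (-0.64 ± 0.11, adjusted p = 2.32e-04), whereas the thymic cDC2 values were all above theirs (0.23 ± 0.12, adjusted p = 0.208), and these tissue effects differed by 0.87 ± 0.16 (adjusted p = 0.0022). Between the subsets Ctsh was higher in cDC2 by 1.86 ± 0.12 in immature thymus (adjusted p = 2.29e-10), and by 0.99 and 0.87, both just under 2-fold, in spleen and mature thymus.

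Ctsz, the carboxypeptidase cathepsin Z (also called X), rose on maturation in cDC1. Its counts were 7428, 8564, 11340 and 5911 in immature and 17085, 17526 and 29038 in mature thymic cDC1. These groups did not overlap, and the log2 fold change was 1.35 ± 0.28 (adjusted p = 3.84e-04; 1.31 within lane 8). Thymic cDC2 had 11870, 12446 and 16416 in immature and 26502, 26756 and 15816 in mature samples. Replicate 3 of the mature cDC2 fell within the immature range, and the difference of 0.74 ± 0.30 (adjusted p = 0.0533) was under 2-fold. Splenic cDC1 had 4293, 4815, 8348 and 4696 and splenic cDC2 11368, 6687 and 12752, which overlapped. The subset difference was 0.89 ± 0.28 in spleen (adjusted p = 0.0255), 0.73 ± 0.28 in immature thymus (0.0751) and 0.12 ± 0.30 in mature thymus (0.818), none of them 2-fold. The tissue effects of 0.60 in cDC1 and 0.44 in cDC2 did not pass the test.

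Ctsa, the serine carboxypeptidase that also protects neuraminidase and beta-galactosidase in the lysosome, separated the subsets within each tissue and state. It was lower in thymus than in spleen in cDC1. Splenic cDC2 had 10198, 8444 and 12218 normalized reads and splenic cDC1 1653, 2158, 3344 and 2054. Immature thymic cDC2 had 6296, 5266 and 6522 and immature thymic cDC1 574, 646, 883 and 449. Mature thymic cDC2 had 3631, 3433 and 1515 and mature thymic cDC1 265, 367 and 409. In each of the 3 pairs the lowest cDC2 sample exceeded the highest cDC1 sample, and the log2 differences were 2.19 ± 0.28 (adjusted p = 5.16e-06), 3.28 ± 0.28 (2.53e-08) and 2.96 ± 0.30 (6.64e-07). From spleen to thymus Ctsa fell by 1.84 ± 0.26 in cDC1 (adjusted p = 3.85e-05; -1.72 within lane 5 and -2.04 within lane 8). The summed level of 4 cDC2 markers went from 2041 to 3073 in splenic to 272 to 548 in immature thymic cDC1, and that of 5 B cell markers from 566 to 984 to 106 to 139, and their part in this result was not tested. In cDC2 the tissue difference was -0.76 ± 0.30 (adjusted p = 0.0849), under 2-fold, with no overlap between the groups. On maturation it fell by 1.17 ± 0.30 in cDC2 (adjusted p = 0.00321; -1.14 within lane 8), and without replicate 3 of mature cDC2 the value was -0.77 (adjusted p = 0.0316), under 2-fold. In the same comparison the summed monocyte markers, with Fcnb at 0 in the immature samples, went from 10787 to 12546 in immature to 286 to 940 in mature cDC2. The plasmacytoid markers went from 7086 to 8010 to 1924 to 3043 and the cDC1 markers from 2818 to 4785 to 14299 to 22307. The part of these markers in the maturation results of cDC2 was not tested. In cDC1 the maturation difference was -0.86 ± 0.28 (adjusted p = 0.0138), under 2-fold with all samples and -1.01 (0.00655) without replicate 4 of immature thymic cDC1.

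Ctse, the aspartic endopeptidase cathepsin E, showed the largest maturation effects of the 10 genes. Immature thymic cDC1 had 609, 877, 524 and 651 normalized reads and mature thymic cDC1 0, 20.8 and 23.2, on 0 to 29 reads, where a count of 0 allows up to 3 reads. Immature thymic cDC2 had 223, 323 and 243 and mature thymic cDC2 40.7, 70.3 and 25.9. No mature sample reached an immature one, and Ctse fell by 6.34 ± 0.70 in cDC1 (adjusted p = 1.39e-07; -6.37 within lane 8) and also fell in cDC2, where the value was -2.597 ± 0.75 (adjusted p = 0.00713; -2.71 within lane 8). The cDC1 value was -4.83 without replicate 1 of mature cDC1, the sample at 0, and -7.06 and -7.13 without its replicates 2 and 3, and it lay between -6.69 and -5.099 under the other settings tried. The maturation effects differed by 3.74 ± 1.02 (adjusted p = 0.0189). Without replicates 1, 2 or 3 of mature cDC1 the difference was 2.24, 4.46 and 4.53, and it was at its lowest, 2.69, with a pseudocount of 8 among the other settings. Within lane 8 alone that difference was 3.67 with an adjusted p of 0.14.

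Splenic samples held 480, 469, 368 and 507 normalized reads of Ctse in cDC1 and 144, 109 and 103 in cDC2. Ctse was lower in cDC2 by 1.94 ± 0.70 in spleen (adjusted p = 0.0488) and higher in cDC2 by 2.41 ± 0.75 in mature thymus (adjusted p = 0.0236). These 2 comparisons differ in tissue as well as in maturation. In immature thymus the value was -1.33 ± 0.70 and did not pass (adjusted p = 0.218). The spleen call was lost without replicate 2 (adjusted p = 0.108) or replicate 3 (0.131) of splenic cDC2 and within lane 8 (0.459). In mature thymus the difference lay between 1.39 and 2.75 under the other settings. It was 0.91 without replicate 1, 3.13 without replicate 2 and 3.21 without replicate 3 of mature cDC1. That call was lost without replicate 2 of mature cDC2 (adjusted p = 0.108) and in limma with the groups compared alone (adjusted p = 0.1996). With DESeq2 and edgeR the immature thymic difference passed as well, at -1.34 and -1.35. The tissue effects, 0.53 in cDC1 and 1.14 in cDC2, did not pass the test in limma although the groups did not overlap. The cDC2 value was called by DESeq2 (1.13, adjusted p = 0.00488) and edgeR (1.15, 0.0527), and by limma with a pseudocount of 8 (1.10, 0.0536) or with the groups compared alone (1.14, 0.0111).

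Ctsk, the cysteine endopeptidase best known from bone resorption, was near the detection limit, with 0 to 29 reads per sample. Its counts were 5.15, 6.90, 4.62 and 3.85 in splenic cDC1, 5.91, 7.50, 4.68 and 18.2 in immature thymic cDC1 and 0, 3.47 and 23.2 in mature thymic cDC1. In cDC2 they were 25.6, 17.5 and 27.7 in spleen, 12.8, 16.7 and 17.1 in immature thymus and 9.98, 6.96 and 7.85 in mature thymus. Only the splenic subset difference passed, at 2.00 ± 0.72 (adjusted p = 0.0489), with no overlap between the groups. The value was 1.26 with a pseudocount of 8. The call was lost without replicate 1 (adjusted p = 0.127) or replicate 3 (0.141) of splenic cDC2, without replicate 4 of splenic cDC1 (0.107) and within lane 8 (0.369). On maturation in cDC1 the value was -0.91 ± 0.72 with all samples (adjusted p = 0.295). It was -2.08 (adjusted p = 0.00563) without replicate 3 of mature thymic cDC1, the highest sample of its group. Without replicate 1, the sample at 0, it turned to 0.22. Between mature cDC2 and mature cDC1 the difference was 2.12 (adjusted p = 0.0172) without that replicate 3 and -0.18 without that replicate 1.

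**Figure D3:**
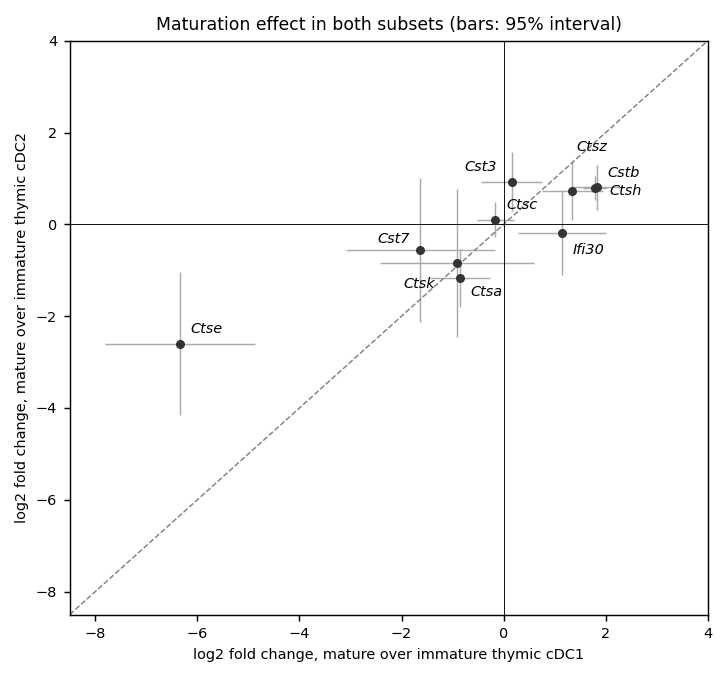
Log2 fold change on maturation in thymic cDC1 (horizontal axis) and thymic cDC2 (vertical axis), 1 point per gene with 95% intervals, and a dashed line where both are equal. Ctse lies lowest on both axes (-6.34 and -2.597), Ctsh and Cstb lie right of the line, and the intervals of Ctsc and Ctsk include 0 on both axes.

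Cst3, the secreted cystatin C, was lower in cDC2 than in cDC1 and rose from spleen to thymus in cDC2. Splenic cDC1 had 99645, 83629, 147175 and 112306 normalized reads, immature thymic cDC1 132425, 153953, 220136 and 116063, and mature thymic cDC1 143455, 139897 and 237590. Splenic cDC2 had 15086, 8518 and 12899, immature thymic cDC2 32095, 37122 and 44457, and mature thymic cDC2 78399, 89924 and 51983. The cDC1 groups overlapped with one another, whereas the 3 cDC2 groups were separate and every cDC2 sample except replicate 2 of the mature group was below every cDC1 sample. The subset difference was -3.19 ± 0.29 in spleen (adjusted p = 3.70e-08; -3.01 within lane 5 and -3.32 within lane 8), -2.01 ± 0.29 in immature thymus (1.93e-05) and -1.23 ± 0.31 in mature thymus (0.00599). The last of these was -0.99 (adjusted p = 0.0304), under 2-fold, without replicate 3 of mature cDC1. Between spleen and thymus Cst3 rose by 1.67 ± 0.31 in cDC2 (adjusted p = 5.11e-04; 1.501 within lane 5 and 1.66 within lane 8), while the cDC1 value was 0.48 (95% interval -0.08 to 1.04). The difference of these tissue effects, 1.19 ± 0.41, had an adjusted p of 0.122 in limma. It was called under 6 of 25 alternatives, among them DESeq2 (1.14, adjusted p = 0.0362) and limma with a pseudocount of 8 (1.19, 0.0975). On maturation the cDC2 value was 0.93 ± 0.31 (adjusted p = 0.0172), under 2-fold. It passed 2-fold without replicate 3 of mature cDC2 (1.16) or replicate 3 of immature thymic cDC2 (1.05). In cDC1 the maturation value was 0.16 (-0.45 to 0.76).

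Cst7, the lysosomal cystatin F, was the gene with the largest subset difference of the 10 in each of the 3 comparisons. Splenic cDC1 had 4.12, 29.6, 13.9 and 18.1 normalized reads, immature thymic cDC1 14.4, 14.2, 18.7 and 17.2, and mature thymic cDC1 9.22, 0 and 15.2, on 0 to 48 reads a sample. Splenic cDC2 had 201, 168 and 220, immature thymic cDC2 433, 350 and 520, and mature thymic cDC2 353, 423 and 163. The lowest cDC2 sample was thus well above the highest cDC1 sample. The log2 difference was 3.76 ± 0.70 in spleen (adjusted p = 3.50e-04; 3.89 within lane 5 and 3.71 within lane 8), 4.66 ± 0.70 in immature thymus (3.49e-05) and 5.73 ± 0.75 in mature thymus (1.22e-05). The last value was 4.50 without replicate 2 of mature cDC1, the sample at 0, and 6.51 without its replicate 3, and it lay between 4.34 and 6.10 under the other settings. On maturation in cDC1 the groups overlapped and Cst7 passed at -1.63 ± 0.70 (adjusted p = 0.0526; -1.68 within lane 8). That call rested on replicate 2 of mature cDC1, the sample at 0, without which the value was -0.40 (adjusted p = 0.545; -2.41 without replicate 3), and it was lost with DESeq2 (-0.80, adjusted p = 0.216) and edgeR (-0.79, 0.275). The maturation value in cDC2 was -0.56 (95% interval -2.13 to 1.00). From spleen to thymus the cDC2 value was 1.13 ± 0.75 (adjusted p = 0.328) with no overlap, and DESeq2 (1.13, adjusted p = 0.0392) and edgeR (1.14, 0.0985) called it. Per kilobase, Cst7 stood at 0 to 3.12 per 100 of Ctsc, its target, in the cDC1 samples and at 6.77 to 25.6 in the cDC2 samples. The size of this ratio is approximate, since it depends on the joined exon lengths (986 bases for Cst7 and 5808 for Ctsc). Cst3 made up 87.6% to 99.1% of the 3 cystatins per kilobase.

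Genes of a macrophage marker list moved with these subset differences. Of 8 such genes measured out of 9, with Adgre1 not analysed here, 6 were higher in cDC2 in spleen, 6 in immature thymus and 7 in mature thymus, and none was lower. Over all 14970 genes tested, 1486, 1644 and 2182 were called higher in cDC2 in these comparisons and 1003, 812 and 652 lower. Their summed normalized count was 3473 to 5203 in splenic, 3231 to 6120 in immature thymic and 5984 to 8765 in mature thymic cDC1, against 7865 to 10258, 9562 to 13902 and 5697 to 19183 in the same groups of cDC2. The sums of the mature groups overlapped, since replicate 3 of mature cDC2, at 5697, was below every mature cDC1 sample. The part of these genes in the subset differences was not tested.

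Cstb, the cytosolic stefin B, rose on maturation in cDC1 and from spleen to thymus in cDC2. Thymic cDC1 had 672, 850, 1311 and 794 normalized reads when immature and 2870, 3580 and 2943 when mature, with no overlap and a log2 fold change of 1.83 ± 0.22 (adjusted p = 4.84e-07; 1.70 within lane 8). Thymic cDC2 had 1344, 1085 and 1525 when immature and 2430, 2709 and 1806 when mature, a value of 0.81 ± 0.24 (adjusted p = 0.00791), under 2-fold. The maturation effect in cDC2 was smaller by 1.02 ± 0.32 (adjusted p = 0.0418). This difference sat at the 2-fold line. It was -0.87 within lane 8 (adjusted p = 0.149), -0.9994 with DESeq2 and -0.93 with edgeR, and between -0.85 and -0.999 without any one of 6 samples (replicates 1 and 4 of immature cDC1, 2 of mature cDC1, 1 and 3 of immature cDC2, 3 of mature cDC2). Splenic samples had 797, 511, 614 and 652 in cDC1 and 631, 471 and 391 in cDC2. From spleen to thymus Cstb rose by 1.42 ± 0.24 in cDC2 (adjusted p = 1.67e-04; 1.299 within lane 5 and 1.72 within lane 8), and the value in cDC1 was 0.47 ± 0.20 (adjusted p = 0.172). No subset comparison of Cstb reached 2-fold. Markers of other cells moved with the tissue results of Cst3 and Cstb in cDC2. The summed level of 3 monocyte genes was 1960 to 2981 in splenic and 10787 to 12546 in immature thymic cDC2. Fcnb, 1 of these 3, was at 0 in all samples of both groups, so the other monocyte genes alone made up the sum. The sum of 5 plasmacytoid genes was 2304 to 3419 and 7086 to 8010, and that of 6 thymic epithelial genes 96.1 to 156 and 3507 to 3877. The part of these marker genes in the tissue results was not tested.

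Ifi30, the thiol reductase, rose on maturation in cDC1 and was spread widely within the thymic groups. Its counts were 3667, 4708, 6077 and 3836 in splenic cDC1, 6767, 4746, 13462 and 5641 in immature thymic cDC1 and 12485, 12433 and 24160 in mature thymic cDC1. In cDC2 they were 11682, 7981 and 10189 in spleen, 17958, 5062 and 25471 in immature thymus and 11958, 10327 and 12947 in mature thymus. On maturation Ifi30 passed in cDC1 at 1.14 ± 0.41 (adjusted p = 0.0226; 1.13 within lane 8) although the groups overlapped. The value was 0.96 (adjusted p = 0.0723) without replicate 2 of immature and 0.83 (0.130) without replicate 3 of mature thymic cDC1. In cDC2 it was -0.18 (95% interval -1.10 to 0.75), and the effects of the subsets differed by 1.32 ± 0.61 with an adjusted p of 0.165, a difference that DESeq2 (-1.57, adjusted p = 0.0433) and edgeR (-1.52, 0.0902) called. The difference between the immature thymic subsets, 0.91 ± 0.41 (adjusted p = 0.138), was also called by DESeq2 (1.08, 0.0308) and edgeR (1.06, 0.058). Between the subsets in spleen the difference was 1.13 ± 0.41 (adjusted p = 0.0517; 1.22 within lane 5 and 1.08 within lane 8), a call that was lost without any one of 4 samples (adjusted p 0.115 to 0.164) and on lane 8 alone (0.503). Without replicate 2 of immature thymic cDC2, the sample at 5062, Ifi30 was higher in thymic than splenic cDC2 by 1.12 (adjusted p = 0.0379) and higher in immature thymic cDC2 than cDC1 by 1.61 (0.00184).

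**Figure D4:**
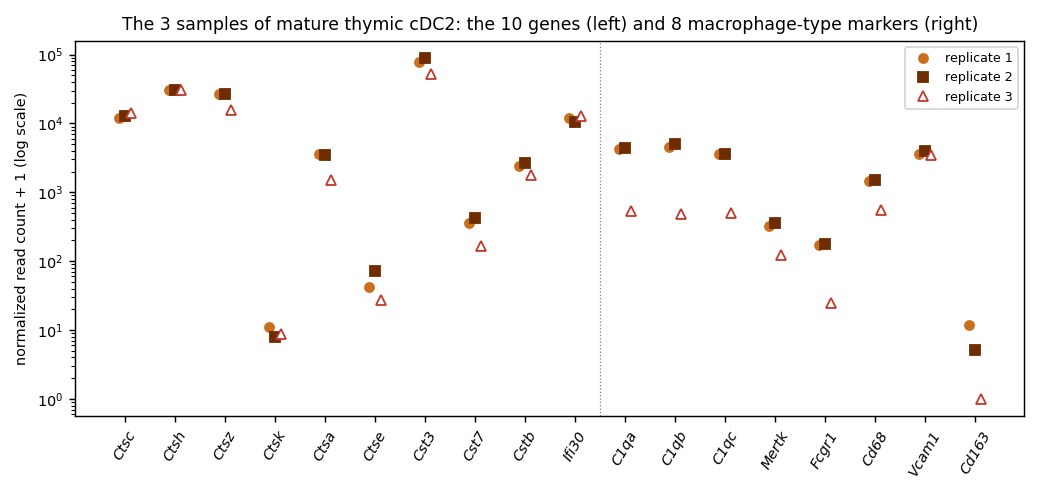
Normalized read counts plus 1 (vertical axis, log scale) of the 3 samples of mature thymic cDC2, with the 10 genes left of the dotted line and 8 macrophage markers right of it. Replicate 3 (open triangles) lies below the other samples for Ctsa (1515), Cst7 (163) and C1qa (532), and beside them for Ctsh, Ctsc and Ifi30.

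Replicate 3 of mature thymic cDC2 stood apart from the other two in part of the genes. Its value was 0.43 times their mean for Ctsa, 0.42 for Cst7, 0.47 for Ctse, 0.59 for Ctsz, 0.62 for Cst3 and 0.70 for Cstb, but 0.99 for Ctsh, 1.14 for Ctsc and 1.16 for Ifi30. Most macrophage markers were low in it too, with C1qa at 532 normalized reads against 4196 and 4445, C1qb at 480 against 4526 and 5056, Fcgr1 at 23.5 against 170 and 178, and Cd68 at 556 against 1437 and 1527, but Vcam1 at 3483 was near the others (3587 and 3978). The part of these genes in the values of this sample was not tested. With replicate 3 left out, Ctsa lost and Cst3 gained the 2-fold call on maturation.

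Other genes of the same pathway were taken from lists of endolysosomal peptidases, of lysosomal sorting, of thiol and redox partners and of the enzymes that share a complex with CTSA. On maturation in cDC1, where 45.7% of all genes were called, 2 of 10 other peptidases tested rose (Scpep1 by 3.61 and Tpp1 by 2.65 on the log2 scale) and 2 fell (Dpp7 by 1.84 and Napsa by 1.44). In cDC2, where 35.6% of all genes were called, 2 rose (Scpep1 by 1.27 and Cpq by 1.02) and 3 fell, Ctsw (by 2.42) and Napsa (by 1.88) the most. Ctsw was low, at 19.2 to 49.8 normalized reads in immature and 0 to 20.2 in mature thymic cDC2, and these ranges overlapped. Scpep1, a serine carboxypeptidase related to CTSA, went from 1664 to 20335 normalized reads in cDC1, while Ctsa was lower after maturation there. Prss16, a protease of the thymus, was higher in thymus than in spleen by 2.76 in cDC1 and 2.71 in cDC2. Ctsf was higher in cDC2 by 3.25 in immature and 2.86 in mature thymus, on low values. It had 0 to 3.33 normalized reads in immature and 0 to 12.8 in mature thymic cDC1. In thymic cDC2 it had 14.1 to 29.9 and 7.06 to 42.2, so the mature groups overlapped. Cpq was lower in cDC2 (-2.57 in spleen and -1.81 in immature thymus).

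Of 8 genes that sort lysosomal enzymes, Sort1, the receptor sortilin, rose on maturation in cDC1 (3.28) and cDC2 (2.25), and Igf2r, the mannose 6-phosphate receptor that delivers cathepsins to lysosomes, fell by 2.63 in cDC1. The difference of Igf2r between cDC2 and cDC1 was -5.99 in spleen, -5.56 in immature and -3.52 in mature thymus, with group means of 23.2 to 66.5 normalized reads in cDC2 and 514 to 3185 in cDC1. Against the same 45.7% and 35.6% of all genes, 2 of 8 thiol and redox genes rose in both subsets on maturation, namely Slc3a1 (3.68 in cDC1 and 2.01 in cDC2), a part of the cystine transporter, and Txn1 (1.39 and 1.38), thioredoxin. Slc3a1 was near 0, at 0 to 4.68 normalized reads in immature and 9.22 to 64.1 in mature thymic cDC1. In thymic cDC2 its immature (0 to 12.1) and mature samples (4.71 to 13.8) overlapped. Of the thiol and redox genes, 4 fell in cDC1, P4hb (by 2.08) and Txndc5 (by 1.99) the most, and 3 fell in cDC2, Pdia3 (by 1.71) and Ctns (by 1.48) the most. Of the 3 genes tested that encode partners of CTSA, Neu1 was called once, higher in splenic cDC2 by 1.15.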

How the data were processed

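RNA of FACS-sorted cDCs was sequenced as stranded, paired-end mRNA libraries. The authors aligned reads to mm10 with STAR 2.6, counted them over Ensembl genes with HTSeq-count (release and strand setting not given in the sources used here) and normalized them with DESeq2 1.24.0. The deposited value is a signal, the normalized read count, that is the read count divided by a size factor of the library. Multiplying by that factor gave back whole reads for 100% of values (within 0.02 reads). The intervals and limits from reads cover counting error only.

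The 21 libraries were taken as 20 samples. Genes that reached 10 normalized reads in 3 or more samples (14970 of 37734) were tested on log2(value + 1) in limma 3.58.1 (R 4.3.3), with 6 group means and a trended, moderated variance, and Benjamini-Hochberg adjustment over all genes tested. Calls needed an adjusted p below 0.1 and more than 2-fold. The script was tested on simulated data. All 10 genes are named, with at most the 2 largest rises and 2 largest falls of each related list per comparison and, for each gene, the 3 most alike genes, some of which are not reported here. The genes and lists were chosen with earlier results of these data known. Alternatives were DESeq2 1.42.0 and edgeR 4.0.16 on the recovered reads, other pseudocounts (8 and 0.5), no filter, TMM scaling, all 21 libraries, 1 sample per library number, the groups compared alone, lane 8 alone, the library number as a block and leaving out each sample. Levels between genes were divided by the joined length of all annotated exons in GENCODE M21, which held 37607 of the gene IDs.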

Additional observations from a re-analysis of the deposited data

Results flagged for a closer look

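Ctsz in splenic immature cDC1 had a highest sample, at 8348 normalized reads, whose gap to the next sample was 0.871 of the range of the group. The rule was applied to 20 sets of 4 values, the 10 genes in each of the 2 groups with 4 samples (immature cDC1 of spleen and thymus). Chance gives about 1 flag in 20 such sets, and the sets of a group share the same samples. The maturation effect differed between cDC2 and cDC1 for Ctse (3.74 on the log2 scale, adjusted p = 0.0189 in limma), Cstb (-1.02, adjusted p = 0.0418) and Ctsh (-0.99, adjusted p = 5.39e-04). The effect of tissue differed between cDC2 and cDC1 for Ctsh (0.87, adjusted p = 0.0022).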

How the results depend on the processing

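Under the alternatives other than leaving out a sample, 974 fold changes of the 10 genes kept their direction and side of the threshold, 27 passed it anew, 14 no longer passed it and 12 turned direction. Counts of called genes are not part of this tally. The genes on few reads depended most on the tool. Ctsk on maturation in cDC1 was 0.12 with DESeq2 and 0.093 with edgeR, between the mature subsets -0.27 and -0.23, and for the difference of maturation effects -1.03, -0.97 and, with a pseudocount of 8, -0.33. Cst7 from spleen to thymus in cDC1 was -0.068, -0.060 and, with 1 sample per library number, -0.19. Ctsc for the difference of tissue effects was 0.0015 after TMM scaling, and Ifi30 on maturation in cDC2 was 0.042 within lane 8. Of the 10 genes, 4 were called for tissue in cDC2 with DESeq2, edgeR, a pseudocount of 8 or the groups compared alone. For the difference of tissue effects, 2 were called with DESeq2 or the groups compared alone and 1 with a pseudocount of 8, 21 libraries or the random replicate block. For the difference of maturation effects 1 was called after TMM scaling and 0 within lane 8, where 4 were called between the splenic subsets. Over all genes, 1767 were called between mature subsets with those groups alone, and lane 8 alone gave 817 for tissue in cDC1, 1631 for the splenic subsets, 1199 for the difference of maturation effects (50.4% higher) and 208 for that of tissue effects. The cause was not tested, although lane 8 holds fewer samples.

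Leaving out each sample in turn gave, on the log2 scale, -0.27 to 0.59 for Cst7 by tissue in cDC1, -0.87 to 0.29 for Ifi30 on maturation in cDC2, -0.044 to 1.12 for Ifi30 by tissue in cDC2, -2.08 to 0.22 for Ctsk and -0.093 to 0.34 for Cst3 on maturation in cDC1, and -0.011 to 0.37 for Ctsz and -0.18 to 2.12 for Ctsk between mature subsets. For the difference of maturation effects it gave -1.06 to 1.241 for Ctsk, -0.16 to 1.85 for Cst7 and -0.54 to 0.090 for Ctsa, with 1 to 4 genes called. For that of tissue effects it gave -0.11 to 0.12 for Ctsc, -0.69 to 0.47 for Ifi30 and -0.44 to 0.025 for Ctsz, with 0 to 3 genes called.

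Library numbers shared between groups did not establish a paired design. Between the splenic groups, same-numbered samples correlated at -0.0398, 0.333 and 0.455, and differently numbered ones at -0.491 to 0.336. Between the immature thymic groups the values were -0.106, 0.21 and 0.153, beside -0.385 to 0.267. Number 8 gave 0.0672 between immature and mature thymic cDC1, and number 569 gave -0.122 between the mature groups. With the number as a fixed replicate block, 7 of the 10 genes were called in spleen and 6 in immature thymus, as without the block in the same libraries (2512 against 2360 and 2346 against 2328 over all genes).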

Other observations

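Of 7 granule serine proteases that CTSC activates, 3 passed the filter on low values. All of these were higher in splenic cDC2 than in splenic cDC1, Gzma by 6.39 and Gzmb by 5.88 on the log2 scale. In that comparison 16.6% of all genes tested differed. From spleen to thymus in cDC2, Gzma fell by 5.16 and Gzmb by 4.80. Gzma (66.9 to 165 normalized reads) and Gzmb (41.2 to 71.4) reached the level of the filter only in splenic cDC2. Elsewhere Gzma lay at 9.09 or less and Gzmb at 2.68 or less. The direction of both genes was thus largely set by the filter, and the count of higher genes is a description only. Gzmc was low and its groups overlapped, with a mean of 8.74 normalized reads (1.63 to 16.5) in splenic and 19.4 (1.07 to 32.1) in immature thymic cDC2. The summed level of NK cell markers, of which Gzma is one, moved the same way as Gzma and Gzmb. It was 114 to 186 normalized reads in splenic cDC2 and 9.09 or less elsewhere, and its part in these values was not tested. Of 12 other cystatins and stefins, 11 were in the files and Stfa2l1 alone passed the filter.

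The genes most alike to each of the 10 over the 20 samples, by Pearson's r of log2(value + 1) among 10224 genes with a mean of at least 100, are given as a description, since samples of a group share their levels. They were Naip2 (0.979), St8sia1 and Nlrp10 for Ctsc, Hebp1 (0.974), Stxbp6 and Gbp3 for Ctsh, and Syngr2 (0.973), Fam110a and St6galnac6 for Ctsz. For Ctsa they were Ifitm3 (0.982), Sirpb1b and Cx3cr1, for Ctse Chchd4 (0.983) and Cdc45, and for Cst3 Got2 (0.970), Stbd1 and Tnni2. For Cst7 they were Gbp7 (0.961) and Gpr183, and for Cstb Gskip (0.958), Srxn1 and Ttc39c. For Ctsk (Ogg1, 0.796) and Ifi30 (Anxa5, 0.819) no gene was as close. Among pairs of the 10 genes, r was highest for Ctsc with Cst7 (0.893) and lowest for Ctsa with Cst3 (-0.823).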
